A study of Drosophila melanogaster with 46 samples.

Results

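The regions described here are the accessible regions of Drosophila melanogaster that lie next to the centromeres of chromosome arms 2L, 3L, 3R and X. They were taken by position from the 30774 regions of the deposited count table. A region belongs to the set if it starts at or beyond 20700000 on 2L, 22000000 on 3L or 20200000 on X, or ends at or before 2000000 on 3R, on genome build dm3. This gave 1950 regions, 6.34% of the table, with 507 on 2L, 431 on 3L, 540 on 3R and 472 on X. No measured value entered the choice. The members are set below against the other 28824 regions, or against the 23007 of these that lie on the same 4 arms. Distances are counted from the deposited region that lies outermost on the centromere side of each arm, so they start at the last region and not at the centromere itself. The members span 2.27 Mb on 2L, 2.53 Mb on 3L, 2.00 Mb on 3R and 2.22 Mb on X.

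Chromatin accessibility was measured by ATAC-seq, in which the transposase Tn5 inserts adapters into DNA that is not covered by nucleosomes. The 31 libraries came from eye-antennal discs, the larval primordia of the eye and the antenna. These were dissected by hand from third-instar larvae at the wandering stage, raised at 25 degrees on normal food. The larvae belonged to 23 lines of the DGRP (Drosophila Genetic Reference Panel), each inbred, derived from a wild-caught female and named by its number, with no transgene or treatment in the labels. Of these lines, 8 gave 2 libraries and 15 gave 1. Library titles with the suffix IR (15 libraries) stand beside titles without it (16 libraries), and each line with 2 libraries had 1 of each. The labels do not say what the suffix stands for or whether the 2 libraries of a line came from separate dissections, so the spread between them may be technical. Discs were lysed whole, and the labels give neither the sex of the larvae nor the number of discs. The tissue was not checked against marker genes, because the regions carry no gene names and no annotation of dm3 was used here.

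The DNA next to a centromere is mostly heterochromatin. It is packed with nucleosomes that carry methylated histone H3 lysine 9 and bind heterochromatin protein 1, and it is rich in transposable elements and other repeats. Genes are sparse there, yet many are expressed, and some need the heterochromatic setting for their expression. The replication-dependent histone genes of Drosophila form a tandem array near the base of 2L. These statements are background and were not measured here.

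The libraries held between 1110755 and 12758783 counts (median 6283136). The library of DGRP_29651 lay at one end of the first principal component of the libraries (score -67.8, range to 36.7), and the highest ratios, the line calls, the component slopes and the regions high in a line are also given without it. Component 1 was computed from regions outside the set. Member regions held 5.14% to 5.88% of a library's counts, with a median of 5.50%. In the shallowest library the share was 5.56% with an exact 95% interval of 5.52% to 5.60%, which covers counting error only. A count of 0 in at least 1 library occurred in 43 members (2.21%), against 419 other regions (1.45%).

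Accessible regions were sparser in the member blocks of 2L, 3L and X than in other windows of those arms. Each member block was compared with windows of the same span along the rest of its arm. The block of 3L held 170 regions per Mb, against 240 to 296 in the other windows. The block of X held 213 per Mb, against 216 to 296 elsewhere on X. On 2L the density was 223 per Mb, against 224 to 299 in the other windows. These were the lowest densities of the 9, 10 and 10 windows on 3L, X and 2L, on X and 2L by a small margin. In full steps of 0.5 Mb from the end outwards, X held 127, 62, 132 and 95 members, with no fall towards the end. The steps held 40, 76, 150 and 156 members on 2L and 29, 29, 41, 138 and 187 on 3L. The block of 3R differed, with 270 regions per Mb and rank 11 of 13 from the lowest. Long stretches without a region were part of this. Of 1946 gaps between neighbouring members, 12 (0.617%) were 50 kb or longer, against 10 of 23003 gaps (0.0435%) between other regions of the same arms. The longest was 156290 bp, on X from 21628873 to 21785163. The longest on 3L was 143183 bp and the longest on 2L 120320 bp, while none on 3R passed 31361 bp.

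On 3L and X the members were also weaker than the rest. Levels are the mean over 31 libraries of log2 CPM, where CPM is the count scaled to the size of its library (prior count 2). Members had a median of 3.56 log2 CPM, against 3.76 in the other regions, with nearly equal lengths (median 464 bp and 456 bp). On 3L the median was 3.19, against 3.82 in the rest of the arm. On X it was also 3.19, against 3.74 in the rest of the arm. On 2L it was 3.84 against 3.63, and on 3R 3.86 against 3.71, so on these arms members lay slightly higher than the rest. The mean CPM of the block was the lowest of all windows of its arm on 3L (25 CPM, others 27.5 to 35.1) and on X (20 CPM, others 25.2 to 36.9).

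Distance from the centromere end ordered the levels differently on each arm. On 3L the median was 2.56, 2.46 and 2.22 log2 CPM in the first 3 steps of 0.5 Mb, then 3.35 and 3.67 in the next 2. The low levels of 3L thus lay within the first 1.5 Mb. On 2L it was 3.02 and 3.16 within 1 Mb, then 4.09, 3.90 and 4.04. X stayed between 3.01 and 3.23 for 2 Mb and reached 3.80 beyond it. The order was turned round on 3R, where the steps nearest the end had 4.18, 4.09 and 3.96 and the farthest had 3.26. Regions under 2 log2 CPM made up 34.5%, 37.9% and 36.6% of the first 3 steps on 3L, against 7.56% of the other regions of that arm.

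**Figure D1:**
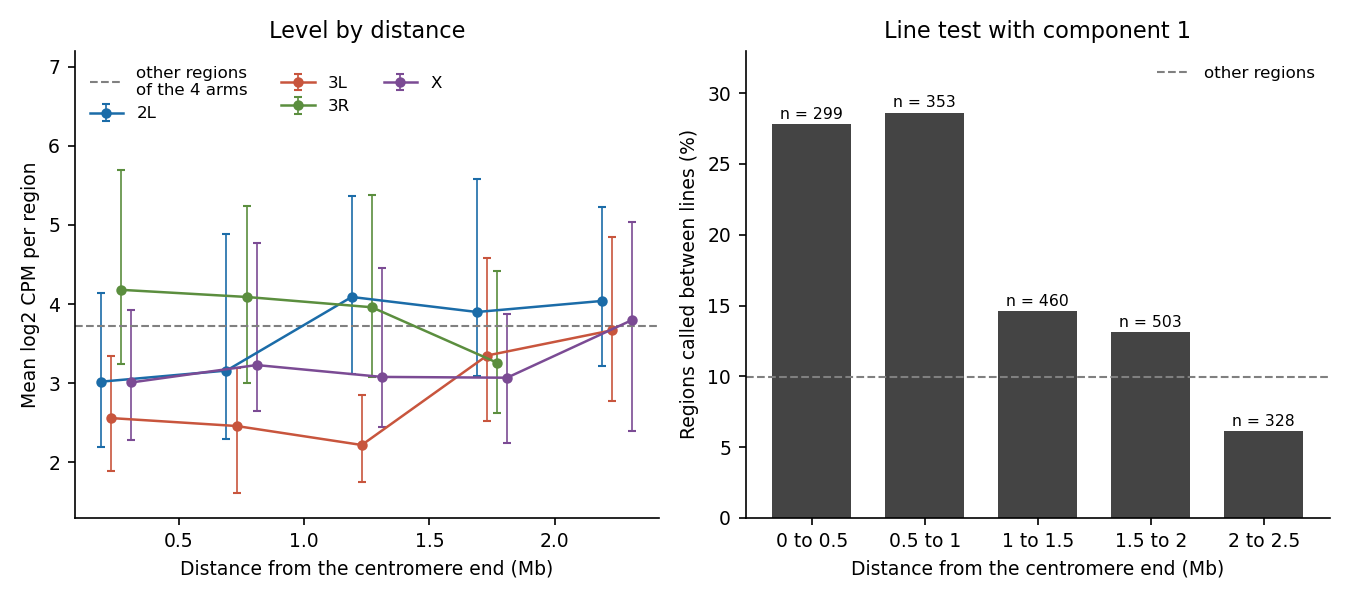
Left, median (points) and middle range (bars, quartiles) of the mean log2 CPM per member in steps of 0.5 Mb from the centromere end, for each arm with at least 20 members in the step; the dashed line is the median of the other regions of the 4 arms, 3.72. Right, percent of members called between lines in the fit with component 1 by distance, the 4 arms pooled, with the number of members over each bar. The share was 27.8% in the first step and 6.10% in the last, and the dashed line marks the 9.98% of other regions.

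The outermost members were not the weakest. On 3R the region that opens the arm, 3R:27-1392, had 246 CPM at the lowest, 382 at the median and 544 at the highest of 31 libraries, and it is among the 5 members of highest mean. The outermost member of X, X:22414681-22415802, had 43.2, 69.5 and 104 CPM. The outermost of 3L, 3L:24530235-24530723, had 21.8, 31.3 and 55.1 CPM. The outermost of 2L, 2L:22968104-22968585, had 4.66, 9.90 and 24.6 CPM. These 4 thus cover a wide range of levels, with the highest on 3R. The other members of highest mean were 2L:21008896-21010124 with a median of 394 CPM, 3R:677940-678695 with 395, 3L:22172172-22173461 with 388 and 3L:22828131-22829180 with 336. The highest mean among the members was 8.61 log2 CPM, against 9.19 among the other regions.

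To describe each library by 1 value per arm, the mean count per member was divided by the mean count per other region of the same arm. Depth and the number of X chromosomes in the larvae scale both parts of this ratio alike. Whether the sex of the larvae moves it in another way was not tested. On X it was 0.457 at the lowest, 0.628 at the median and 0.761 at the highest of 31 libraries. On 3L it was 0.625, 0.752 and 0.907. Both highest values belong to DGRP_29651, without which they were 0.720 on X and 0.869 on 3L. Both ratios stayed below 1 in 31 of 31 libraries. On 2L it was 0.878, 1.03 and 1.12, and on 3R 0.962, 1.03 and 1.10, above 1 in 23 of 31 libraries on each. Lower accessibility next to the centromere thus held in every library on 3L and X, and in 8 of 31 on 2L and on 3R. Within 1 Mb of the end the median ratio was 0.272 on 3L, 0.723 on 2L, 0.578 on X and 1.12 on 3R.

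Libraries with the IR suffix had lower ratios than their partners on X. In the 8 lines with both kinds, the log2 ratio on X averaged -0.77 ± 0.19 with the suffix and -0.54 ± 0.08 without it (SD, n = 8 each). The paired difference was -0.225 (SE 0.0491), lower with the suffix in 8 of 8 lines (exact two-sided sign-flip permutation test, p = 0.00781, adjusted p = 0.0195 over 5 tests). That p is the smallest which 8 lines allow. On 3L the difference was -0.172 (SE 0.0564), lower in 6 of 8 lines, and did not pass the adjustment (exact permutation, adjusted p = 0.052). On 2L it was 0.0191 (SE 0.0305) and on 3R 0.0374 (SE 0.0256), with adjusted p of 0.562 and 0.274 by the same exact permutation test and 4 of 8 lines on either side.

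The difference on X was also tested against the other arms, a comparison added after the arms were seen to differ. The suffix effect on 2L exceeded that on X by 0.244 (SE 0.0598) and the effect on 3R exceeded it by 0.262 (SE 0.0723), each in 8 of 8 lines (exact permutation, adjusted p = 0.0234 over 6 contrasts). Those of 3L and X differed by 0.0526 (SE 0.0487; exact permutation, adjusted p = 0.366). Over the 4 arms together the difference was -0.085 (SE 0.0196), lower in 8 of 8 lines (exact permutation, adjusted p = 0.0195). The ratio of X to autosomes outside the members was 0.907 ± 0.0656 with the suffix and 0.988 ± 0.147 without it (SD, n = 8 each), with the lower value under the suffix in 5 of 8 lines. The component 1 score was 9.88 ± 28.8 with the suffix and -18.7 ± 41.8 without it (SD, n = 8 each). The paired difference was 28.6 (SE 21.2), with the score under the suffix lower in 4 lines and higher in the other 4. The part of either in the difference was not tested.

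**Figure D2:**
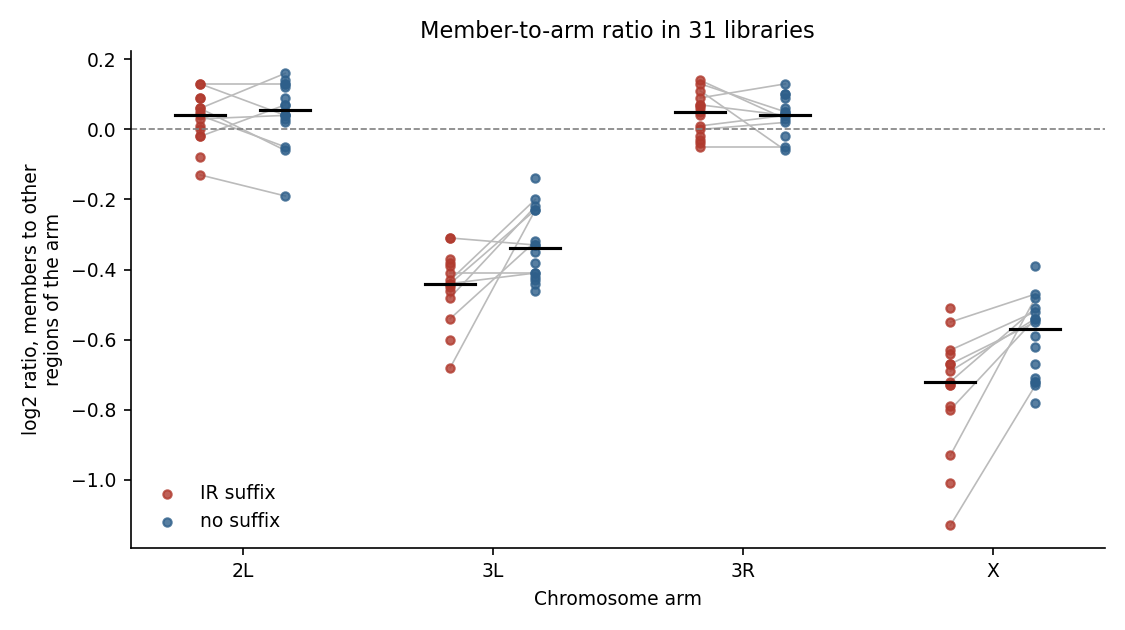
Log2 of the mean count per member over the mean count per other region of the same arm, in each of 31 libraries (points); IR suffix stands left of no suffix, grey lines join the 2 libraries of a line and black bars are medians. Values on X lie between -1.13 and -0.39 and are lower with the suffix in all 8 joined lines, while those on 2L and 3R lie around 0.

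On 3L the difference had opposite signs near the end and farther out. Among the 373 members of 3L beyond 1 Mb the suffix difference of the log2 ratio was -0.209 (SE 0.0586), lower in 7 of 8 lines. Among the 58 within 1 Mb it was 0.381 (SE 0.153), higher in 6 of 8 lines. On X it was -0.244 (SE 0.0487) beyond 1 Mb and -0.187 (SE 0.0878) within it, lower in 8 and in 5 of 8 lines. With members within 1 Mb only, the difference over 4 arms became 0.0626 (exact permutation, adjusted p = 0.456) and that on X no longer passed (exact permutation, adjusted p = 0.234). The values beyond 1 Mb were added after the others were seen and carry no test.

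Among single regions the suffix gave few calls. In the 16 paired libraries, edgeR called 9 of 30710 regions (0.0293%) and 0 of the 1943 members tested at an adjusted p under 0.05. An unadjusted p under 0.05 was found for 363 members (18.7%), against 17% of all regions. DESeq2 called 76 members (3.91%; 36 higher, 40 lower), against 3.63% of all regions (816 higher, 298 lower). Both shares lie close to the background. The direction on X nevertheless showed across its members: the median difference in level was -0.31 log2 and 374 of 472 (79.2%) were lower with the suffix, against a median of -0.10 and 59.7% in the other regions of X. Of the X members, 27 were lower in all 8 lines and 0 were higher in all 8, against 98 lower and 67 higher among 4963 other X regions. On 3R, 40 members were higher in all 8 lines and 1 was lower, against 342 higher and 41 lower among 6625 other 3R regions. Over all regions 1287 were higher in all 8 lines and 312 lower.

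With the component 1 score in the model, edgeR called 123 members with the suffix, 24 higher and 99 lower (adjusted p under 0.05). The background was 4.39% of 30710 regions (1.81% higher, 2.58% lower), against 6.33% of the members. X held 69 of these, all lower (14.7% of its members, against 5.97% of its other regions in either direction). On 3L, 5 were higher and 21 lower (6.06%, against 4.01% of its other regions). On 3R, 16 were higher and 3 lower (3.52%, against 4.01%), and on 2L 3 were higher and 6 lower (1.78%, against 3.70%). X was thus the arm with the highest share of calls.

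Among members lower with the suffix, those with the smallest p had these values. X:21245643-21246034 had 9.97 to 20.9 CPM with the suffix (median 12.9) and 15.9 to 38.5 CPM without it (median 23.1), a log2 fold change of -0.84 (SE 0.0421, 8 of 8 lines lower, edgeR adjusted p = 0.0708). X:20459221-20459547 had medians of 3.49 and 7.02 CPM with and without the suffix and a log2 fold change of -0.99. X:21462971-21463588 had medians of 11.1 and 20.6 CPM and a log2 fold change of -0.83. All 3 were lower in every line, though their ranges overlapped. The only one not on X was 3L:22260305-22261175, with medians of 132 CPM with the suffix and 164 CPM without it.

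Among members higher with the suffix, those with the smallest p were on 2L and 3R. 3R:1498196-1498829 had 28.5 to 39.4 CPM with the suffix and 12 to 25.4 CPM without it, with no overlap (log2 fold change 0.81, SE 0.12, edgeR adjusted p = 0.0947). 2L:21653247-21653774 had medians of 10.5 and 4.50 CPM with and without the suffix and a log2 fold change of 1.17. 2L:21553307-21554290 had medians of 21 and 14.1 CPM and a log2 fold change of 0.84. 3R:46391-47155, close to the end of its arm, had medians of 47.2 and 31.6 CPM and a log2 fold change of 0.57. Each was higher with the suffix in 8 of 8 lines. Adjusted p for these 4 and the 4 lower ones ran up to 0.107 with edgeR, so none passed alone without component 1. With component 1 in the model each of them passed (edgeR adjusted p from 0.00434 to 0.0292). They had been picked for their small p in the same libraries.

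The ratios of different arms moved together over the 23 line means in pairs. 3L and X correlated with r = 0.82 (permutation p, adjusted over 9 relations, 0.00018) and rho = 0.69 (adjusted permutation p = 0.00441). Without the 2 lines farthest from the median r was 0.60, and it was 0.78 within the libraries with the suffix and 0.70 within those without it. 2L and 3R correlated with r = 0.61 (adjusted permutation p = 0.00958), but rho = 0.50 did not pass (adjusted permutation p = 0.0694) and r was 0.44 without the 2 farthest lines. Within suffix groups that r was 0.45 and 0.73. The 4 relations across these 2 pairs ran from r = -0.40 to -0.04, and none passed. With members within 1 Mb only, the r of 3L and X was -0.0887 and that of 2L and 3R was -0.342. Neither relation was thus seen there, where 3L has 58 members and 2L 116. Members beyond 1 Mb were not correlated alone.

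The mean of the 4 ratios correlated with the component 1 score with r = -0.50 (adjusted permutation p = 0.0441) but rho = -0.32 (adjusted permutation p = 0.302), r = -0.37 without the 2 farthest lines, and -0.32 and -0.71 within the libraries with and without the suffix. Without DGRP_29651 r was -0.31 and no longer passed (adjusted permutation p = 0.377). Against the X to autosome ratio r was -0.19, and against the log10 library total -0.07, with adjusted permutation p of 0.571 and 0.837. No test showed the 2 libraries of a line to be closer in the ratio than libraries paired at random (exact permutation over 40320 pairings, adjusted p from 0.192 to 0.868). With suffix means removed, their mean absolute log2 difference over all 4 arms was 0.0459, against 0.0667 over all pairings. It was 0.0717 against 0.106 on 2L, 0.0608 against 0.0698 on 3R and 0.111 against 0.148 on X. On 3L it was the larger, 0.127 against 0.105.

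Differences between lines were tested for every region with the suffix as a covariate. Of 30773 regions tested, 29 were called at an edgeR adjusted p under 0.05, a background of 0.0942%. The 1950 members were all tested and 7 were called, which is 0.359%, with 4 on 2L and 3 on 3L. An unadjusted p under 0.05 was found for 263 members (13.5%), against 7.68% of all regions. The count of calls is fragile, and that over all regions moved with it. DESeq2 called 195 members (10%, against 5.51% of all regions) and limma voom 4 (0.205%, against 0.0325%). The 16 paired libraries alone gave 58 (2.99%, against 1.16%), and without DGRP_29651 there were 9 (0.462%, against 0.192%). It fell to 0 without any 1 of 8 libraries, which were both libraries of DGRP_25208, DGRP_28275 and DGRP_29652 and the IR libraries of DGRP_28123 and DGRP_55031. Without the other library of DGRP_28123 it was 4.

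The 7 called members fell into distinct patterns. At 2L:20826253-20826460, a region of 208 bp that lies 2.14 Mb from the end, 5 lines (DGRP_28275, DGRP_55031, DGRP_28265, DGRP_55026 and DGRP_28153) had 3.98 to 4.75 log2 CPM, and the other 18 lay at or below 2.27. The range over libraries was 0.856 to 26.6 CPM with a median of 3.82, and the line test gave an edgeR adjusted p of 0.0387. The 3 of these 5 lines with 2 libraries had both of them in the high group. At 3L:23032175-23032823, 5 other lines formed the high group, and CPM ran from 1.71 over a median of 4.52 to 60.2 (edgeR adjusted p = 0.0153).

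At 2L:22259960-22260702 a pair of lines stood apart, DGRP_28123 and DGRP_28202, with 114 CPM at the highest library against a median of 3.11 over all 31 (edgeR adjusted p = 0.0153). At 3L:23829682-23831039 a single line stood apart, DGRP_25194, with 682 counts and 84 CPM against a median of 3.35 (edgeR adjusted p = 0.0153). At 2L:21656141-21657018 DGRP_28260 was lowest with 2.18 log2 CPM, below the next line by 1.10, while the rest formed a ramp up to 6.04 in DGRP_25185 (edgeR adjusted p = 0.0169). Its median was 13.6 CPM, and its level with the suffix was higher in 8 of 8 lines, by 0.62 log2.

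In the other 2 the lines spread over a wide range. 2L:22675596-22676596, 292 kb from the end and the strongest of the 7, ran from 12.3 CPM over a median of 85.3 to 397 (edgeR adjusted p = 0.0153), with DGRP_25193 1.36 log2 above the next line. 3L:22093911-22094492 ran from 5.03 over 15.4 to 88.3 CPM (edgeR adjusted p = 0.0153). Over the 7 members the SD of the 23 line means was 1.01 to 1.54 log2, and the SD within lines from the 8 pairs of libraries was 0.272 to 0.518 log2. These values entered the calls and are given as a description.

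**Figure D3:**
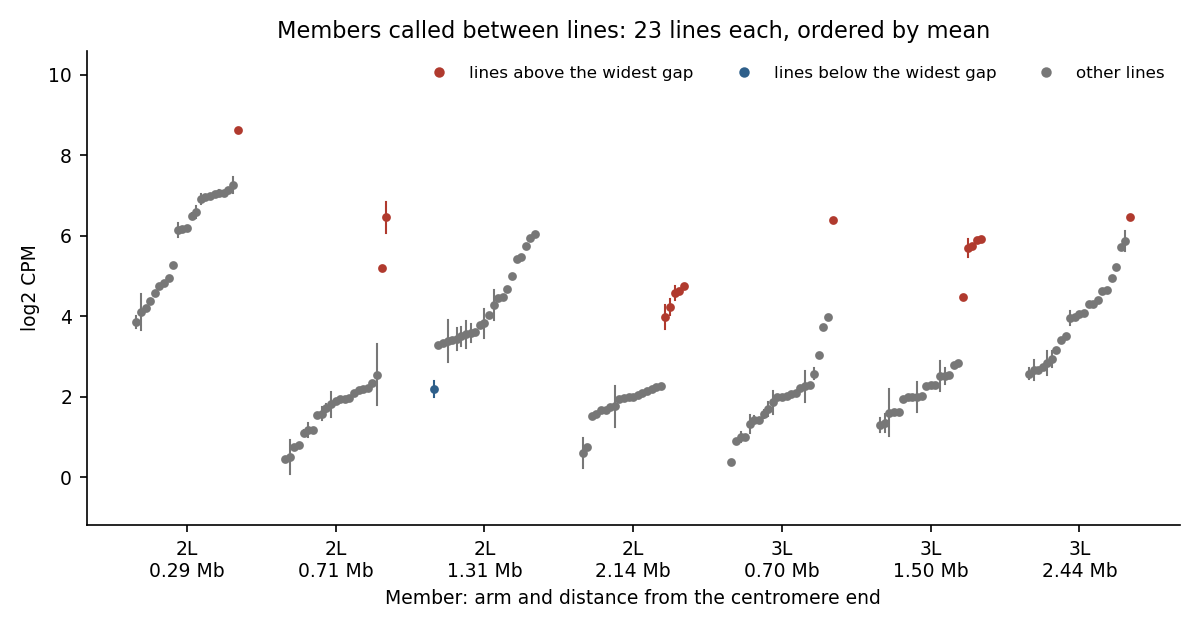
Log2 CPM of the 7 members called between lines, labelled by arm and distance from the centromere end; each point is 1 of 23 lines, ordered by its mean, and a vertical line joins the 2 libraries of a line where there are 2. Red and blue mark the lines above and below the widest gap, for example the 5 lines between 3.98 and 4.75 on 2L at 2.14 Mb.

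Adding the component 1 score to the model raised the number of calls and showed a gradient with distance over the 4 arms pooled. It called 3214 of 30773 regions (10.4%) at an edgeR adjusted p under 0.05, of which 337 were members (17.3% of the members, against 9.98% of the other regions). Without DGRP_29651 it called 346 members (17.7%, against 10.5%). In steps of 0.5 Mb from the end the share of members called was 27.8%, 28.6%, 14.6%, 13.1% and 6.10%. The share was thus highest within 1 Mb (184 of 652 members) and below that of other regions beyond 2 Mb. The steps were not split by arm, and their make-up differs. X gives 127 of 299 members in the first step, and 3L gives 187 of 328 in the last. On X it was 25.6%, against 10.4% of other X regions. On 3L and 2L it was 18.6% and 17.8%, against 9.32% and 11.4%. On 3R it was 8.52%, against 8.39%, so that arm did not stand out. Weak and strong members both took part: with all regions split into 4 equal groups by level, from low to high, 24.8%, 14.8%, 14.7% and 14% of members were called, against 11%, 8.91%, 10.8% and 9.17% of other regions.

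Among the 10 members with the smallest p in that fit were the 7 above and 3 more. At 3L:23072619-23073322 DGRP_28123 lay lowest at 0.52 log2 CPM with DGRP_29651 next, and the other 21 lines lay at or above 2.14 (1.01 to 37.6 CPM, median 8.57; edgeR adjusted p = 5.98e-06). At 3L:23565577-23565948, 6 lines lay at or above 2.45 log2 CPM and 17 at or below 1.51 (0.317 to 19.1 CPM, median 1.85; edgeR adjusted p = 4.16e-06). At X:21054817-21055568 DGRP_25194 was highest with 7.18 log2 CPM, 1.04 above the next line (5.45 to 145 CPM, median 18.7; edgeR adjusted p = 8.29e-07). All 3 had an adjusted p between 0.0566 and 0.083 without the component.

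The spread of line means was slightly wider in members, and so was the spread within lines. The SD of the 23 line means had a median of 0.422 log2 in members and 0.389 in other regions, and it reached 1 in 67 members (3.44%), against 1.96% of other regions. In the lowest of the 4 groups by level the medians were 0.599 in members and 0.595 in other regions, and the SD reached 1 in 8.88% of members, against 4.62% of other regions. In the highest group the medians were 0.274 and 0.256. The median was widest on X (0.507) and narrowest on 3R (0.352). With component 1 removed the medians of members and other regions were 0.335 and 0.318. The SD within lines, from the lines with 2 libraries, had medians of 0.430 in members and 0.401 in other regions. The wider spread of line means is thus not shown to come from the lines.

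The slopes on component 1 differed between members and other regions in opposite ways on different arms. From the lowest to the highest score, 436 members (22.4%) had a fitted slope of 2-fold or more downwards, against a background of 21.9%, and 83 (4.26%) upwards, against 4.13%. On 2L the downward share was 15% of members, against 23.9% of the other regions. On 3L it was 29% against 21.6%, on X 26.9% against 20.1% and on 3R 20% against 23.5%. Without DGRP_29651, over the same range of scores, it was 14.6% of members against 23.8% of other regions on 2L. On 3L it was then 27.6% against 21.3%, on X 26.5% against 19.7% and on 3R 19.8% against 23.3%. The downward share also depended on level. With all libraries it was 37.4% of members against 48.2% of other regions in the lowest of the 4 groups by level. In the highest group it was 3.02% against 2.59%. The lowest group held 34.3% of 3L members and 36.9% of X members, against 20.1% on 2L and 19.4% on 3R. The part of level in the arm differences was not tested. The steepest downward slopes were in X:20627799-20628484 (4.07 to 109 CPM, median 9.11, change -4.59 log2), 2L:21330793-21331282 (1.93 to 62 CPM, median 4.68, change -4.28) and 3R:668523-669156 (2.35 to 62.3 CPM, median 7.27, change -4.21). They followed the score with r of -0.95 to -0.97 over the 31 libraries and of -0.94 to -0.97 without DGRP_29651. The steepest upward slopes were weaker and poorly tied to the score. 2L:22462894-22463114 had a change of 1.98 log2 (r = 0.32), 2L:22460183-22460459 of 1.80 (r = 0.31) and 3L:23573621-23574094 of 1.56 (r = 0.29). Without DGRP_29651 these were 1.69 (r = 0.26), 1.75 (r = 0.28) and 0.90 (r = 0.17). Each region had a count of 0 in at least 1 library, and the 2 on 2L had medians of only 1.42 and 1.04 CPM.

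Many members were high in at least 1 line. A region was counted where every library of a line lay at least 4-fold above the median of the 23 line means and at 3 log2 CPM or more. This held for 186 members (9.54%), against a background of 7.05% of all regions, with 1 such line in 163 and 2 or more in 23, and DGRP_29651 gave 88 of them. Without that line, 104 members (5.33%) remained under the rule, against 2.22% of other regions. By distance, in steps of 0.5 Mb and without DGRP_29651, the share was 9.03%, 11%, 4.57%, 2.58% and 1.22%. It was thus several times higher within 1 Mb of the end than beyond 2 Mb. The steps pool the 4 arms and were not matched for level, which also changed with distance. 3R has no members beyond 2 Mb, where 3L gives 187 of 328. The part of arm and level in this gradient was not tested. The opposite case, a line at least 4-fold below a median of 3 log2 CPM or more, held for 30 members (1.54%), against a background of 0.799%, with 1 such line in 23 and 2 or more in 7. This is a fold rule with no test, since 15 lines have 1 library.

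Of the members high in a line, 50 stood side by side in 12 runs of 3 or more regions, each within 5 kb of the last. These runs were looked for after the single regions had been seen. Regions in such runs made up 2.12% of all regions and 2.56% of members. DGRP_29651 gave 3 of the 12 runs among the members, against 82 of 134 among the other regions. Without DGRP_29651 there were 9 runs among the members (4.62 per 1000 regions), against 52 among the other regions (1.80 per 1000). The runs of members were 2.56 to 12.9 kb long.

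A family of 4 runs belonged to DGRP_28262. The run on 3R from 828259 to 834815 held 7 regions in 6.56 kb, all of the regions in that span. Its summed level was 121 and 625 CPM in the 2 libraries of DGRP_28262, against 10.8 to 55 CPM (median 24.9) in the other 29 libraries. The run on 3L from 23819170 to 23824142 had 96.6 and 468 CPM, against a median of 18.6 in the other lines. The runs on 3L from 23066749 to 23071535 and from 24212121 to 24215082 had 58.6 and 255 CPM and 40.7 and 185 CPM, against medians of 9.99 and 7.40. In each run the first value is the library without the suffix and the second, higher one is the IR library. No library of another line overlapped those of DGRP_28262 in any of the 4 runs. The rule that formed the runs used these same levels, so the separation is a description only.

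These 4 runs shared more than the line. The mean of the 2 libraries exceeded the median of the others by 15 to 15.7 times in each, and the library with the highest value outside the line was in each case replicate 1 of DGRP_28123. Over the 29 libraries of other lines, the log2 levels of the 4 runs correlated with r of 0.824 to 0.916 although they lie on 2 arms. Outside the member blocks DGRP_28262 had 11 further runs, 3.55 to 7.42 kb long, and the levels of the members' runs followed them with a median r of 0.908. Against the runs of other lines, those of DGRP_29651 left out, the median r was 0.165.

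Line DGRP_25185, with a single library, had 4 runs among the members. The run on X from 22022424 to 22028464 held 7 regions and 180 CPM in DGRP_25185, against 5.55 to 48.9 CPM (median 11) in the other 30 libraries. The run on X from 22173443 to 22176624 had 111 CPM, against a median of 6.48, and that on 3L from 22983066 to 22989843 had 137 CPM, against a median of 7.66. In these 3 runs the line lay 16.4, 17.1 and 17.8 times above the median, and DGRP_25174 was next in all of them. The run on 2L from 22662603 to 22665167 lay lower, 4.93 times above the median, with DGRP_25187 next. In the whole table DGRP_25185 had 36 runs on 5 arms, and DGRP_25174 was next highest in 34. Over the 30 other libraries, the log2 levels of its 4 member runs correlated with r of 0.0926 to 0.909 (median 0.498). With its 32 runs outside the member blocks r was -0.0187 to 0.964 (median 0.873). Against runs of other lines, those of DGRP_29651 left out, it was -0.0419 to 0.912 (median 0.137).

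DGRP_25194 had 1 run among the members, on 3L from 23827302 to 23831745, with 137 CPM against a median of 5.74 in the other lines. It includes the called region 3L:23829682-23831039. The 3 other runs of this line lay on other arms, and its level followed theirs with r of 0.872 to 0.886 over the 30 other libraries. The 3 runs of DGRP_29651 were of another kind: the line lay 6.75 to 7.30 times above the median, but libraries of other lines came close, with 226 CPM in replicate 1 of DGRP_55031 against 249 CPM in DGRP_29651 on 3L from 22475951 to 22488844. The sources used here do not state how reads matching several places were counted, and whether the runs hold copies of the same sequence was not tested.

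Only 1 run of members was low in a line, with 0.256% of members in such runs against a background of 0.0357%. On X from 21018402 to 21034621, 5 of the 7 regions in 16.2 kb were at least 4-fold below the median in DGRP_25174. Their sum was 7.63 CPM in that library, against 30 to 95.5 CPM (median 49.3) in the other 30. Among other low members, 3R:872343-872550 had 2 counts in DGRP_28222 (-0.75 log2 CPM), against 2.34 to 4.78 in the rest. 3L:23679267-23679681 had 2 and 1 counts in the libraries of DGRP_28123, against 1.96 to 4.33 log2 CPM in the rest. 3R:630103-630416 had 3 and 7 counts in those of DGRP_25208, against 3.80 to 4.85 log2 CPM. The DNA of the lines was not examined, so a low count may also stand where the sequence is missing or changed.

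**Figure D4:**
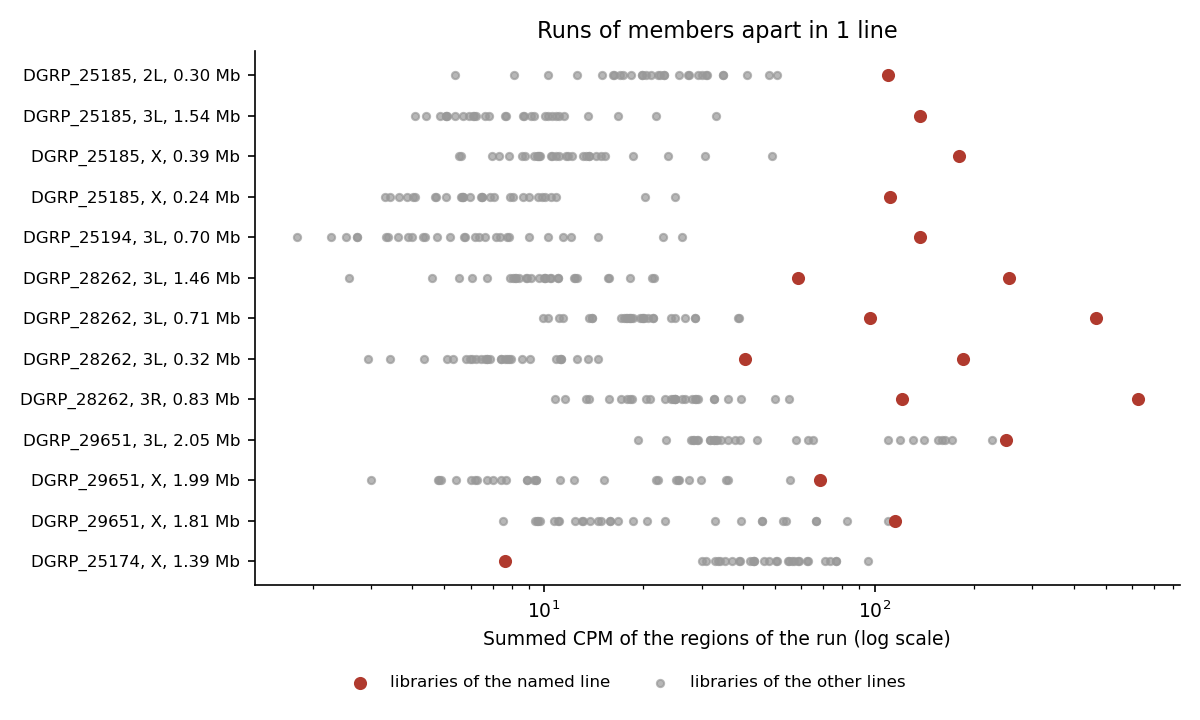
Summed CPM (log axis) of each run of members apart in 1 line, labelled by line, arm and distance from the centromere end; red points are the libraries of that line and grey points the other libraries. The 4 runs of DGRP_28262 lie at 40.7 to 625 CPM, above all grey points of their rows, and the single low run of DGRP_25174 lies at 7.63 CPM.

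The members most alike over the lines were evenly spaced on 2L. Among members at least 10 kb apart with an unadjusted line p under 0.05, the 3 pairs with the highest correlation of line means all came from 4 regions that start at 21464053, 21469086, 21474117 and 21479148 (r of 0.979 to 0.992 over 23 lines). A search for such spacing on every arm, made after these pairs were seen, found 2 interleaved chains of 14 regions on 2L from 21452387 to 21520334. Their midpoints follow each other every 5054 and 5050 bp at the median (SD 47.5 and 36.8 bp). The 28 regions are all of the regions in those 67.9 kb. Outside this stretch no chain at this spacing had more than 6 regions, and the one with 6 lies close by on 2L, from 21413323 to 21439090.

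The 28 regions were strong. Their mean CPM ran from 39.4 to 75.6 with a median of 51.1, against a median of 12.4 over all members, and they held 2.66% of the members' counts with 1.44% of the regions. The first regions of the pairs moved as a block, with a median r of 0.816 between their line means (91 pairs). Between other members of an arm no farther apart, which were not matched for level, it was 0.135. The second regions had a median r of 0.293, and 5 of them in a row formed a group of their own.

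Those 5 regions, from 21458998 to 21479790, had a highest library more than 2-fold above their median, which no other of the 28 had. Their line means correlated with r of 0.941 to 0.992. Averaged over the 5, the level was 149 and 113 CPM in replicates 2 and 1 of DGRP_55031, 108 in DGRP_25174, 99.2 in DGRP_28224, 97.8 and 91.4 in replicate 2 of DGRP_28275 and of DGRP_28265, and 81 in DGRP_28206, against a median of 68 over all libraries. The lowest were DGRP_25194 with 42.5 CPM and DGRP_28153 with 44. Among lines with 2 libraries the values could differ: DGRP_25208 had 130 CPM with the suffix and 72.5 without it, and DGRP_28260 had 129 with it and 66.1 without it. The suffix log2 fold change of the 4 named regions was 0.34 to 0.44, higher in 6 or 7 of 8 lines, and did not pass (edgeR adjusted p from 0.179 to 0.230).

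The RefSeq gene table of assembly Release 6 lists 23 His1, 20 His2A, 23 His2B, 23 His3 and 22 His4 genes on 2L. That table is of another build than the regions. It was used for names only, no position was carried over, and the 28 regions are not assigned to any gene here. No sequence of them was examined.

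**Figure D5:**
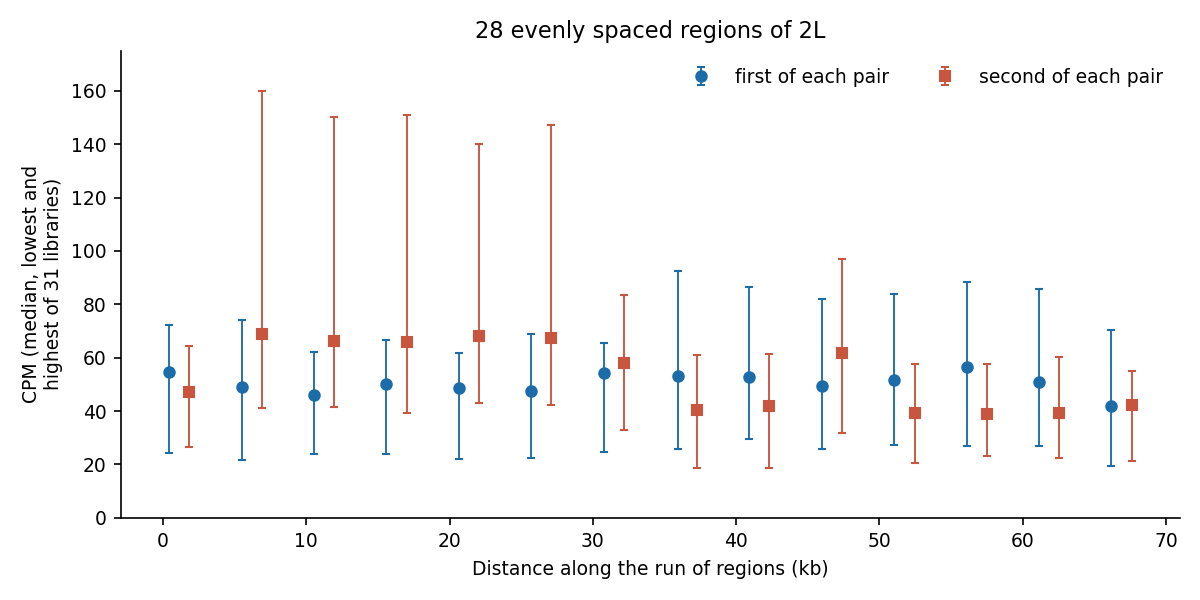
CPM of the 28 evenly spaced regions of 2L against the distance along the stretch in kb; points are the median of 31 libraries and bars reach from the lowest to the highest library, with the first and the second region of each pair in separate colours. In 5 of the second regions, one after the other, the highest library reaches 140 to 160 CPM, above that of each of the other regions.

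Over all members, with these stretches included, neighbouring members shared their line differences about as far as other regions did. Pairs of members within 1 kb of each other had a mean r of 0.437 between line means, against 0.458 in other regions of the 4 arms. At 1 to 5 kb the values were 0.261 and 0.255, at 5 to 10 kb 0.164 and 0.174, and at 10 to 50 kb 0.114 and 0.105. These correlations share libraries and carry no test.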

How the data were processed

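The authors deposited raw read counts per region for 31 DGRP libraries over 1 merged set of 30774 regions. Per the submitters' processing notes, Bowtie2, MACS2, featureCounts and DESeq2 were used with build dm3. Tool versions and the handling of duplicate reads, of reads matching several places and of the Tn5 offset are not stated there. Each can move counts in repeats. The 15 other samples are not analysed here. No dm3 genome or annotation was used.

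Libraries were grouped by line and suffix as titled. Counts were fitted with edgeR 4.0.16 in R 4.3.3 (TMM, robust quasi-likelihood F-tests, Benjamini-Hochberg over all regions, threshold 0.05) over regions reaching the CPM of 10 counts at the median depth in 2 or more libraries. Line tests used 31 libraries with the suffix as covariate, with or without the score of component 1, computed from 14501 non-member regions above the median level. The suffix test used 16 libraries with the line as block, which pairs the libraries of a line. The 2 libraries of a line differed beyond sampling noise (mean chi-square per region 8.52 to 29.4 at 1 degree of freedom) and were kept apart. Each fit leaves few residual degrees of freedom (7 for lines and suffix alone), so lines with 1 library borrow the spread of the others. Log2 CPM carries a prior count of 2. Ratios were tested by exact sign flips, correlations with 100000 permutations. DESeq2 1.42.0 and limma 3.58.1 served as alternatives, and the fits were tested on simulated counts.

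Regions named are those called between lines, the 10 smallest p with component 1, the 4 smallest suffix p in each direction, the outermost of each arm, the 5 of highest mean CPM, up to 8 in each direction farthest from other lines, the 3 steepest component slopes in each direction and the 3 most alike distant pairs. Of those high or low in 1 line, examples are given. The members, lists and tests were chosen with earlier results of these data known. The search for runs and even spacing followed the data.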

Additional observations from a re-analysis of the deposited data

Results flagged for a closer look

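On X, replicate 1 of DGRP_28262 had the lowest log2 member-to-arm ratio of the 8 paired libraries without the suffix, at -0.73, while the next was at -0.55 and the median at -0.53. Its distance from the next took up 0.722 of the range, above the critical value of 0.526. It was the only one of 15 groups of libraries so marked, and chance marks about 1 in 20. The IR library of the same line was the lowest of all 31 on X, at -1.13.

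The effect of the suffix on the ratio differed between arms. The log2 difference, with minus without the suffix, was 0.0191 on 2L, 0.0374 on 3R and -0.225 on X. The 2L value minus the X value was 0.244 (SE 0.0598) and the 3R value minus the X value 0.262 (SE 0.0723), above 0 in 8 of 8 lines each (exact permutation, adjusted p = 0.0234 over 6 contrasts).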

How the results depend on the processing

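The calls between lines were the least stable result. Against 7 members (0.359%, all regions 0.0942%), the count was 0 at an adjusted p under 0.01 (1 of all regions), 0 with the X to autosome ratio added (0 of all), 3 among members within 1 Mb (0.460%), 4 with limma voom (0.205%, all 0.0325%), 11 without a suffix term (0.564%, all 0.224%), 58 in the 16 paired libraries (2.99%, all 1.16%) and 195 with DESeq2 (10%, all 5.51%). It ranged from 0 to 9 without 1 library. With the replicate number as a replicate block in place of the suffix it was 10 (0.513%, all 0.130%). With component 1 the 337 calls (17.3%, all 10.4%) became 159 at a mean count of 50 or more (11.8%, all 7.34%), 209 at an adjusted p under 0.01 (10.7%, all 5.02%) and 184 within 1 Mb (28.2%), with 245 to 410 without 1 library. For the suffix, against 0 members, edgeR gave 2 at a mean count of 50 or more (0.161%, all 0.0936%), 3 with no replicate block (0.154%, all 0.462%) and 123 with component 1 added (6.33%, all 4.39%), and DESeq2 gave 76 (3.91%, all 3.63%). It stayed at 0 in each fit without 1 line.

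The suffix difference of the ratio over 4 arms ran from -0.0947 to -0.0739 without 1 line and that on X from -0.246 to -0.191, all with an adjusted p of 0.0391 (exact permutation). Within 1 Mb they were 0.0626 and -0.187. With no replicate block the difference on 3L (-0.172) passed (exact permutation, adjusted p = 0.00932). The correlation of 2L with 3R was 0.261 from median counts and -0.342 within 1 Mb, and that of 3L with X was -0.0887 within 1 Mb. That of 3R with X passed from median counts (-0.638), over 31 libraries (-0.500) and without 1 library of DGRP_28262 (range -0.490 to -0.303). That with component 1 was -0.00408 within 1 Mb and -0.582 to -0.310 without 1 library, and 9 of these 17 did not pass. The value nearest 0 was that without DGRP_29651. The cause was not tested in any of these. All other correlations and the pairing tests stayed on the same side of the threshold under the alternatives run.

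The SD of line means in members minus that in other regions (0.0323 at the median) was 0.0539 within 1 Mb and 0.0173 with component 1 removed. The difference of component slopes (-0.0655) was 0.0557 within 1 Mb. The difference of levels (-0.199) stayed between -0.248 and -0.182. At 8-fold in place of 4-fold, 34 members were high in a line (1.74%, all 0.965%) and 6 low (0.308%, all 0.250%). Without 1 library 105 to 205 were high at 4-fold, the lowest without DGRP_29651. The values without 1 library for levels, spreads, slopes and lines apart and all values without DGRP_29651 were added after seeing the data. Lines with 1 library rest on single values, and weak members on few counts.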
